A study of Homo sapiens with 6 samples.

Results

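Cholesterol and fatty acid synthesis genes were examined in H23 cells, a human lung adenocarcinoma line, after RNA interference against the long non-coding RNA HOTAIR. The set held 41 genes of the 27968 in the gene tables, picked by symbol and not by their values, and all 41 passed the filter on low counts. They fall into 5 regulators of the pathway, 19 genes of the sterol branch and 17 genes of the fatty acid branch. Cells grown in RPMI medium with 10% FBS received either an siRNA named for HOTAIR-N or a control siRNA through the lipid reagent RNAiMAX, and RNA was taken 48 hours later. Each group had 3 libraries, which the series describes as independent transfections, made with a stranded total RNA kit that removes ribosomal RNA. Both groups received siRNA and reagent in the same line, and the sources used here give no second siRNA against HOTAIR, so that other effects of this siRNA and the loss of HOTAIR cannot be told apart.

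Sterols and fatty acids are built from the same cytosolic acetyl-CoA. The transcription factors SREBP2 (gene SREBF2), mainly for sterol enzymes, and SREBP1 (gene SREBF1), mainly for fatty acid enzymes, are held in the endoplasmic reticulum with their escort SCAP by the INSIG proteins. When membrane sterol is scarce, SCAP carries them to the Golgi, where proteases free the active factor, and INSIG1 is itself one of the target genes. Tumour cells commonly make much of their own lipid through these enzymes.

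The targeted gene, measured under the symbol HOTAIR, was lower in every HOTAIR-N siRNA library. No isoform in the tables used here carries the name HOTAIR-N, so that form was not measured by itself. HOTAIR had 88, 74 and 82 expected counts with HOTAIR-N siRNA, against 169, 148 and 202 with control siRNA, and its log2 fold change was -1.04 (SE 0.14; adjusted p = 1.32e-05 by edgeR's quasi-likelihood test). Permuting the CPM of the libraries exactly, two-sided, gave p = 0.1, and 3 against 3 libraries allow none smaller. The libraries held 32715361 to 36578681 expected counts, and the lowest count of any lipid synthesis gene in a library was 81.1, for FADS2. Replicates were not copies of one another, with a chi-square per degree of freedom of 2.05 to 5.66 among HOTAIR-N siRNA libraries and 6.75 to 14 among control libraries, and control replicate 1 was the farthest from the others. The summed TPM of 9 lung epithelial markers was 2920 to 3290 with HOTAIR-N siRNA and 3720 to 4420 with control siRNA, nearly all of it from the keratins KRT8 and KRT18. KRT18 alone of the list was lower without overlap, with 1449 to 1597 TPM with HOTAIR-N siRNA and 2355 to 2809 TPM with control siRNA, while KRT8, KRT19, EPCAM and SFTPB overlapped between the groups. The cadherin gene CDH1 was higher, with 24.1 to 25.3 TPM with HOTAIR-N siRNA and 11.6 to 12.3 TPM with control siRNA, and NKX2-1, KRT7 and NAPSA were also higher in every HOTAIR-N siRNA library than in any control. The surfactant gene SFTPB and the protease gene NAPSA stayed under 1 TPM in every library. The summed markers of leukocytes, endothelium, fibroblasts, and hepatocytes and adipocytes reached at most 3.04 TPM in any library. The markers thus did not move one way, and their part in the results was not tested. In bulk RNA fewer cells of a type and less RNA per cell cannot be told apart.

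The lipid synthesis genes moved in both directions in nearly equal numbers. Of the 41, 14 rose and 14 fell with HOTAIR-N siRNA (edgeR, adjusted p under 0.05 over all genes), and 13 did not pass. That is 68.3% changed, beside 57.5% of the 15072 genes tested, of which 28.7% rose and 28.8% fell. The median log2 fold change of the set was 0.04, beside 0.01 over all genes tested, and its median absolute log2 fold change was 0.28, beside 0.29. Among the 10479 genes within the same range of control level, 4.6 to 378 CPM (counts scaled to library size), 61.3% changed and the median absolute log2 fold change was 0.24. The CPM of the 3 HOTAIR-N siRNA libraries and the 3 control libraries did not overlap for 29 of the 41 genes, beside 62.9% of all genes tested. A call together with a fold over 1.5 was reached by 8 of the 41, beside 21.8% of all genes, and 1 of them, ACSS2, passed a fold of 2. The share of these genes that changed was thus near that of all genes, and the values below describe which enzymes moved and in which direction.

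**Figure D1:**
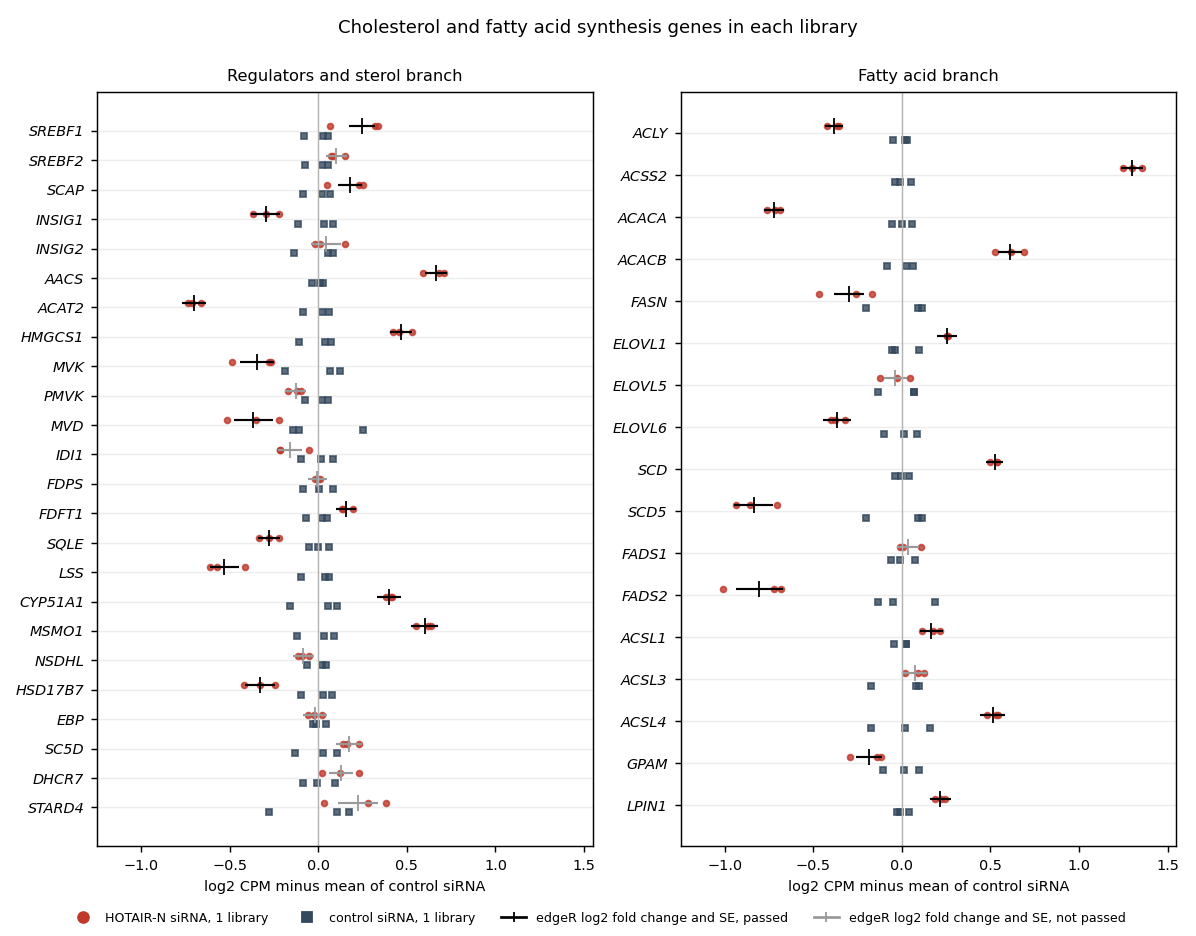
Each row is a gene, ordered along the pathway, with the log2 CPM of each library minus the mean of the control libraries on the horizontal axis (circles, HOTAIR-N siRNA, above squares, control siRNA) and the edgeR log2 fold change with its SE as a cross (black, passed, grey, not passed). ACSS2 lies farthest to the right at 1.301 and SCD5 farthest to the left at -0.84, and both branches hold genes on either side of 0.

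The fatty acid branch had the larger share of changed genes and the larger changes. In it 14 of 17 genes changed (82.4%), 7 higher and 7 lower, with a median absolute log2 fold change of 0.37. In the sterol branch 11 of 19 changed (57.9%), 5 higher and 6 lower, with a median absolute log2 fold change of 0.28. The sterol branch was thus near all genes tested, of which 57.5% changed with a median absolute log2 fold change of 0.29. Apart from the fold test below, FASN, ACSL1 and GPAM lost their call in some alternative, as did MVD and FDFT1 of the sterol branch. The median signed log2 fold change was near 0 in each, at 0.04 for the fatty acid branch and -0.02 for the sterol branch. The groups did not overlap in CPM for 13 genes of each branch, beside 62.9% of all genes tested. Against a fold of 1.5, 3 of the 41 genes passed, beside 1700 of the 15072 tested, and all 3 were fatty acid genes. They were ACSS2, which was higher, and ACACA and SCD5, which were lower. The difference between the branches itself was not tested, since the genes of a branch are not replicates.

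**Figure D2:**
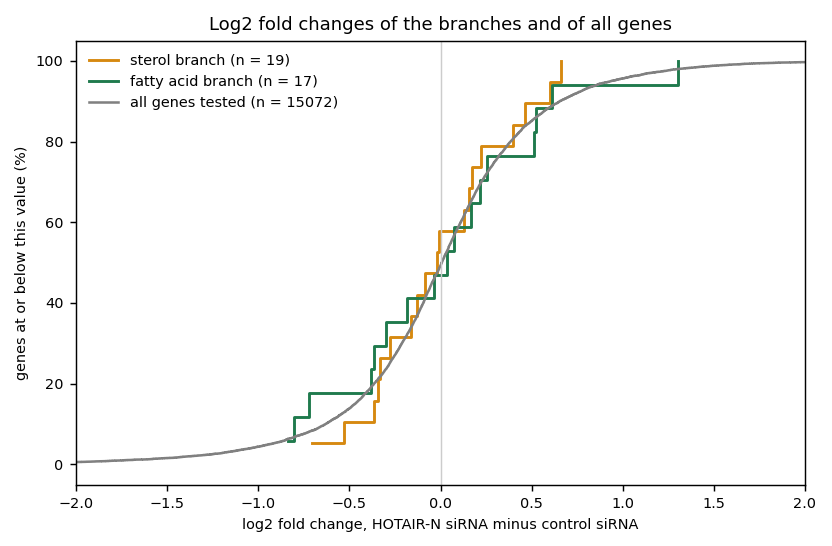
Cumulative share of genes (vertical axis, percent) at or below each log2 fold change of HOTAIR-N siRNA minus control siRNA (horizontal axis), for the 19 sterol genes, the 17 fatty acid genes and all 15072 genes tested. The curves of both branches cross that of all genes near 0, with branch medians of -0.02 and 0.04.

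In level per transcript length, FDPS, ELOVL5 and ACLY led the set in control cells. FDPS, which makes farnesyl pyrophosphate, averaged 406 TPM with HOTAIR-N siRNA and 423 TPM with control siRNA, and made up 37.8% to 40.4% of the summed sterol branch in each library. FADS2, at 1.69 TPM with HOTAIR-N siRNA and 3.08 TPM with control siRNA, was the lowest of the 41 in both groups. The largest move in order of level was that of ACSS2, which stood in place 14 of 41 with HOTAIR-N siRNA and in place 26 with control siRNA. The summed CPM of the fatty acid branch was 2112 ± 18.2 with HOTAIR-N siRNA and 2042 ± 69.3 with control siRNA (SD, n = 3 each), and these ranges overlapped. The summed CPM of the sterol branch was 1051 ± 8.68 with HOTAIR-N siRNA and 997 ± 12.8 with control siRNA (SD, n = 3 each), or 105.4% of control. TPM divides by the estimated isoform length and is then scaled to a fixed total within each library. In TPM the same sum was 1054 ± 2.49 with HOTAIR-N siRNA and 1084 ± 3.02 with control siRNA (SD, n = 3 each), or 97.2% of control. The direction of the sum thus depended on the unit, and the source of this difference was not tested.

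**Figure D3:**
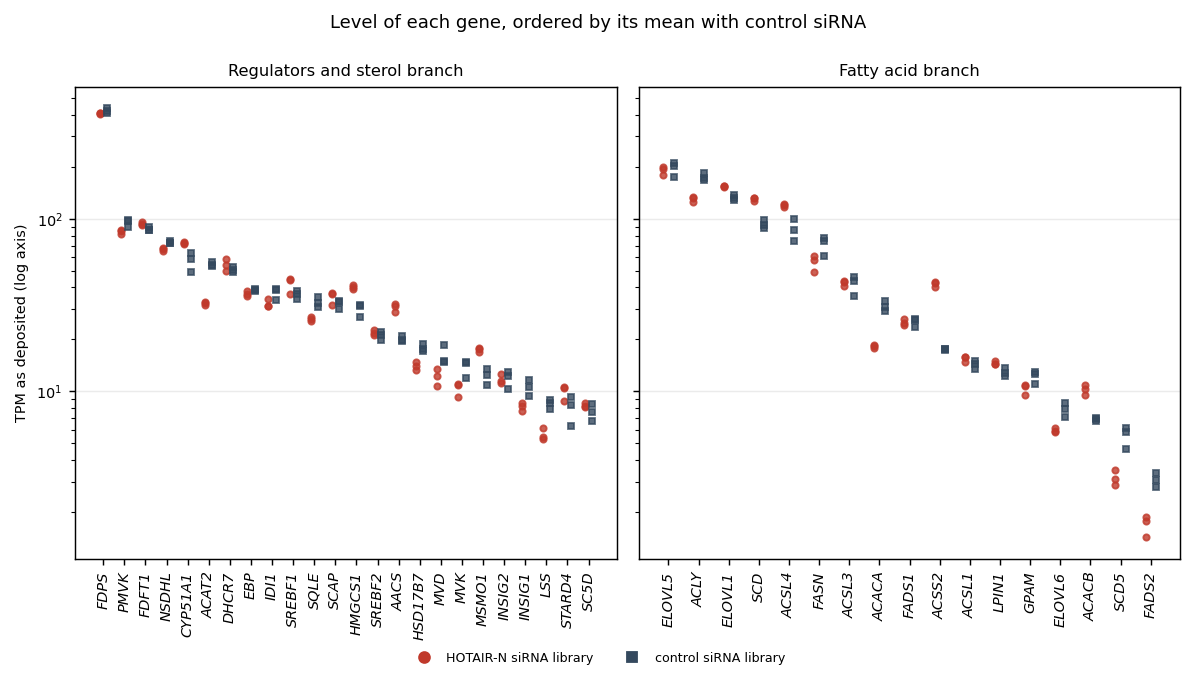
TPM of each gene in each library (vertical log axis), with HOTAIR-N siRNA circles left of control siRNA squares, and genes ordered by their control mean within the regulators and sterol branch and within the fatty acid branch. The set runs from FDPS, at 423 TPM in control cells, down to FADS2, at 3.08 TPM, and ACSS2 stands out of the control order at 41.9 TPM with HOTAIR-N siRNA.

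Among the regulators, the genes of SREBP1 and its escort rose slightly, and INSIG1 fell. SREBF1 had 80.8, 97.5 and 96.3 CPM with HOTAIR-N siRNA, against 80.1, 78.5 and 73 CPM with control siRNA, a log2 fold change of 0.25 (SE 0.07; edgeR, adjusted p = 0.00943). Its first HOTAIR-N siRNA library lay just above the highest control, and SREBF1 did not pass without HOTAIR-N siRNA replicate 2 (adjusted p = 0.055) or 3 (adjusted p = 0.0556). Its annotated exons overlap RAI1 on the other strand over 556 bases. SCAP had 69.1, 79.8 and 78.3 CPM with HOTAIR-N siRNA, against 70.1, 67.9 and 62.9 CPM with control siRNA, and passed narrowly with a log2 fold change of 0.18 (SE 0.07; adjusted p = 0.0364). The groups overlapped, and SCAP did not pass in 4 of the 6 fits that left out a library. INSIG1, the retention factor that is also a target of the pathway, had 11.8, 13.1 and 12.4 CPM with HOTAIR-N siRNA, against 14.1, 16.2 and 15.6 CPM with control siRNA. All 3 HOTAIR-N siRNA libraries lay below the controls, and INSIG1 fell by 0.30 on the log2 scale (SE 0.08; adjusted p = 0.00542). SREBF2 and INSIG2 did not pass, with log2 fold changes of 0.10 (SE 0.06; adjusted p = 0.162) and 0.04 (SE 0.08; adjusted p = 0.672). SREBF2 passed without control replicate 1, at 0.14 (adjusted p = 0.0403).

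The first steps of the sterol branch moved in opposite directions. AACS, which makes acetoacetyl-CoA from acetoacetate, had 49.4, 52.7 and 53.7 CPM with HOTAIR-N siRNA, against 33.4, 33 and 32 CPM with control siRNA. This was the largest rise of the branch, a log2 fold change of 0.66 (SE 0.06; edgeR, adjusted p = 4.05e-07), with no overlap between the groups. AACS has a named pseudogene, so part of its reads may be shared. ACAT2, the cytosolic thiolase that makes the same compound from acetyl-CoA, had 24.6, 23.4 and 23.8 CPM with HOTAIR-N siRNA, against 39.6, 36.8 and 40.7 CPM with control siRNA. ACAT2 fell to 61.4% of control, the largest fall of the branch, with a log2 fold change of -0.70 (SE 0.07; adjusted p = 4.57e-07). Its exons overlap TCP1 over 397 bases and SOD2 over 1141 bases on the other strand, so its level is uncertain as long as the strand setting of the counting is unknown. HMGCS1, which condenses acetoacetyl-CoA into HMG-CoA, had 117.9, 109.1 and 111.9 CPM with HOTAIR-N siRNA, against 75.5, 83.8 and 85.9 CPM with control siRNA. HMGCS1 rose with a log2 fold change of 0.47 (SE 0.06; adjusted p = 1.45e-05), and its groups were clearly apart.

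The kinase and decarboxylase steps that turn mevalonate into isoprenoid units were lower or did not pass. MVK, mevalonate kinase, had 9.54, 11 and 11.1 CPM with HOTAIR-N siRNA, against 14.5, 14 and 11.7 CPM with control siRNA, and fell by 0.34 on the log2 scale (SE 0.10; adjusted p = 0.00643). Its control replicate 3 lay close to the HOTAIR-N siRNA libraries, and MVK overlaps MMAB on the other strand over 306 bases. MVD, the decarboxylase, had 9.84, 12.1 and 11 CPM with HOTAIR-N siRNA, against 16.7, 12.7 and 13 CPM with control siRNA, and fell by 0.37 (SE 0.11; adjusted p = 0.00963). The first control library was well above the other 2, and MVD did not pass without HOTAIR-N siRNA replicate 1 (adjusted p = 0.0552). PMVK, the second kinase, had a log2 fold change of -0.13 (adjusted p = 0.0844) and IDI1, the isomerase, -0.16 (adjusted p = 0.0548). IDI1 passed without HOTAIR-N siRNA replicate 1 (-0.22, adjusted p = 0.021) and without control replicate 1 (-0.20, adjusted p = 0.00905). FDPS had 262, 259.7 and 256.5 CPM with HOTAIR-N siRNA, against 276, 244.9 and 260.7 CPM with control siRNA, a log2 fold change of -0.01 (SE 0.05; adjusted p = 0.928). The control libraries of FDPS spanned those of HOTAIR-N siRNA, and 8 genes are named as its pseudogenes, with which reads can be shared. On the other strand, exons of FDPS overlap RUSC1-AS1 over 693 bases and those of IDI1 overlap IDI2-AS1 over 643 bases.

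At the entry to sterols the epoxidase and cyclase were lower. FDFT1, squalene synthase, rose narrowly with a log2 fold change of 0.15 (SE 0.06; adjusted p = 0.0297), had groups that did not overlap, and did not pass in 4 of the 6 fits that left out a library. SQLE, which adds oxygen to squalene, had 41.1, 39.7 and 38.1 CPM with HOTAIR-N siRNA, against 46.3, 50.1 and 47.9 CPM with control siRNA, and fell by 0.28 on the log2 scale (SE 0.06; adjusted p = 0.00143). LSS, the cyclase that forms lanosterol, had 11.9, 11.6 and 13.3 CPM with HOTAIR-N siRNA, against 18.5, 18.2 and 16.6 CPM with control siRNA. LSS fell to 69.2% of control, a log2 fold change of -0.53 (SE 0.08; adjusted p = 5.35e-05), with no overlap.

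The first demethylation enzymes after lanosterol rose, while later enzymes fell or did not pass. CYP51A1, lanosterol demethylase, had 113.8, 111.6 and 114.2 CPM with HOTAIR-N siRNA, against 76.6, 92 and 88.8 CPM with control siRNA, a log2 fold change of 0.40 (SE 0.07; adjusted p = 0.000122). MSMO1, methylsterol monooxygenase, had 19.7, 18.5 and 19.4 CPM with HOTAIR-N siRNA, against 11.7, 13.4 and 12.9 CPM with control siRNA, a log2 fold change of 0.60 (SE 0.08; adjusted p = 1.03e-05). In both genes the HOTAIR-N siRNA libraries lay close together and above all controls, of which control replicate 1 was the lowest. HSD17B7, the ketosteroid reductase of the same demethylation cycle, had 9.81, 9.23 and 10.4 CPM with HOTAIR-N siRNA, against 12.6, 11.5 and 13 CPM with control siRNA, and fell by 0.33 on the log2 scale (SE 0.08; adjusted p = 0.00345). CYP51A1 has 3 named pseudogenes and HSD17B7 has 2, so part of their reads may be shared. NSDHL, the dehydrogenase between MSMO1 and HSD17B7, had a log2 fold change of -0.09 (adjusted p = 0.23) and the isomerase EBP -0.02 (adjusted p = 0.825). The desaturase SC5D had 0.17 (adjusted p = 0.057), and DHCR7, the reductase of the last step, 0.13 (adjusted p = 0.13). STARD4, a soluble sterol carrier, had 0.22 (SE 0.11; adjusted p = 0.103), with control libraries from 13.2 to 18.2 CPM. SC5D passed under 4 of the alternative settings, DHCR7 passed without control replicate 1 (0.18, adjusted p = 0.0202) and STARD4 without HOTAIR-N siRNA replicate 2 (0.32, adjusted p = 0.0282).

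Promoters of 37 of the 41 genes were matched by symbol to RefSeq windows of 300 bases on GRCh38.p14, from 250 before to 50 after the gene's start. ACAT2, FDFT1, SQLE and FASN had no window and were not searched. Only the first window listed for each symbol was used, so other promoters of a gene were not searched. They were searched on both strands for short motifs known at sterol-responsive promoters. The CCAAT box, bound by the factor NF-Y that works beside SREBP, was present in 22 of the 37 (59.5%), against 35.7% of all 27305 windows. It was present in 8 of the 11 windows of genes that fell, in 5 of the 13 of genes that rose and in 9 of the 13 of genes that did not pass. By branch it was present in 12 of 16 sterol windows and 8 of 16 fatty acid windows. The GC box GGGCGG was present in 89.2%, against 44.6% of all windows, and the E-box CACGTG in 5 of 37 (13.5%), against 7.43%. The core of the sterol regulatory element, TCACNCCAC with N for any base, was present in SREBF2 alone of the 37 windows searched (2.7%, against 1.15% of all windows). Only these letters were matched, so a window without them may hold a sterol element of other sequence. The windows of all genes include many genes that were not among those tested here, whereas all members were. Shares among tested genes alone were not computed, so whether a difference from all windows is particular to lipid genes was not tested. A match is a description of these letters and not of a bound site. The windows of ACSS2, which rose most, of MSMO1, which rose, and of MVK, which fell, are shown because genes of opposite direction carry the same box, and that of SREBF2 because it holds the sterol element. The capitals mark the CCAAT box on either strand (CCAAT or ATTGG) and, in SREBF2, also the sterol element. They lie on the plus strand at chr20:34874739-34875038 (ACSS2), chr4:165327419-165327718 (MSMO1), chr12:109573544-109573843 (MVK) and chr22:41832855-41833154 (SREBF2).
ACSS2: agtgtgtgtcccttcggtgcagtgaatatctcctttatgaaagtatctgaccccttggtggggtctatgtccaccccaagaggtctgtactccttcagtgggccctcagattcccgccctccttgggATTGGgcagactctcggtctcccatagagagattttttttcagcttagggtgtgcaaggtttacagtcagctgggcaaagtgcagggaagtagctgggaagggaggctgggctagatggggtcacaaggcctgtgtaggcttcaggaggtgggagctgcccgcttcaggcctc
MSMO1: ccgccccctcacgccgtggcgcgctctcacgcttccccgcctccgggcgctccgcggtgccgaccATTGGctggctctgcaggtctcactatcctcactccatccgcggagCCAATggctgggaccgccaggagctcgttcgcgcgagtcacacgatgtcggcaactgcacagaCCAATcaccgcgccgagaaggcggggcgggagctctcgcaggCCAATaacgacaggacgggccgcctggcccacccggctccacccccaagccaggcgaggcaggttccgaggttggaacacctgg
MVK: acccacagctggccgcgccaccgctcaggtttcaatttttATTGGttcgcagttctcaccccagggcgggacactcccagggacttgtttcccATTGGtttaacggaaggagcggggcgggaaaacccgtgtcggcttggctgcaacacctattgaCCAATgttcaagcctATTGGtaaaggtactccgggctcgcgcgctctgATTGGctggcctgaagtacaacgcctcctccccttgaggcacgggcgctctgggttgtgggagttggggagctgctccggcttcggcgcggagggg
SREBF2: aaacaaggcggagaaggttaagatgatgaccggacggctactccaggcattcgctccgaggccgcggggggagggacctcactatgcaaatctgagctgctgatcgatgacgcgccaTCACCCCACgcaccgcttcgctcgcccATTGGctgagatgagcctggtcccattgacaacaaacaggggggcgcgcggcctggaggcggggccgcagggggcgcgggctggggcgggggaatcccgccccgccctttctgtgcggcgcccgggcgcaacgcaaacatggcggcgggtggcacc

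MSMO1 held 4 CCAAT boxes and MVK 5 within the same window length, and their log2 fold changes were 0.60 and -0.34. Neither was typical. MSMO1 held the most of the genes that rose, followed by HMGCS1 and SCD with 2 each. MVK held the most of those that fell, followed by MVD with 3. ACSS2 held 1, with the largest rise of the set. Whether the box goes with the direction of change was not tested.

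In the fatty acid branch the enzymes that supply acetyl-CoA moved apart. ACSS2, which makes acetyl-CoA from acetate, had 60.2, 64.7 and 62.2 CPM with HOTAIR-N siRNA, against 26.2, 24.6 and 25.1 CPM with control siRNA. This was 246.4% of control, a log2 fold change of 1.301 (SE 0.06; edgeR, adjusted p = 4.21e-10), and each HOTAIR-N siRNA library lay far above every control. ACLY, which makes acetyl-CoA from citrate, had 282, 296 and 292.8 CPM with HOTAIR-N siRNA, against 383.3, 385.3 and 365.5 CPM with control siRNA, and fell by 0.38 on the log2 scale (SE 0.05; adjusted p = 1.34e-05). ACLY remained the more abundant of the pair: the ratio of ACSS2 to ACLY in TPM was 0.321, 0.325 and 0.321 with HOTAIR-N siRNA, against 0.102, 0.0964 and 0.104 with control siRNA.

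The acetyl-CoA carboxylases, whose product malonyl-CoA feeds fatty acid synthesis, also moved apart. ACACA, the cytosolic form, had 93.9, 89.4 and 92.4 CPM with HOTAIR-N siRNA, against 145.9, 157.7 and 151.5 CPM with control siRNA, or 60.6% of control (log2 fold change -0.72, SE 0.05; adjusted p = 4.48e-08). ACACB, the form at the mitochondrial surface, whose malonyl-CoA restrains fatty acid import for oxidation, had 46.9, 52.5 and 50 CPM with HOTAIR-N siRNA, against 34, 30.8 and 33.1 CPM with control siRNA. ACACB rose with a log2 fold change of 0.61 (SE 0.07; adjusted p = 2.21e-06), and neither gene's groups overlapped. The ratio of ACACB to ACACA in TPM was 0.52, 0.612 and 0.562 with HOTAIR-N siRNA, against 0.242, 0.203 and 0.227 with control siRNA. FASN, which builds palmitate from malonyl-CoA, had 219.1, 270.4 and 253.9 CPM with HOTAIR-N siRNA, against 327.9, 323.1 and 263.9 CPM with control siRNA. FASN fell by 0.30 on the log2 scale (SE 0.08; adjusted p = 0.00719), but its groups overlapped and it missed the threshold without control replicate 1 (-0.24, adjusted p = 0.143).

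Desaturases of the same kind differed in direction. SCD, the main stearoyl-CoA desaturase, which makes oleate, had 361.8, 370.8 and 371.9 CPM with HOTAIR-N siRNA, against 249.2, 263.4 and 255.5 CPM with control siRNA, a rise of 0.52 on the log2 scale (SE 0.05; adjusted p = 4.53e-07). SCD5, its paralog, had 4.57, 5.09 and 4.32 CPM with HOTAIR-N siRNA, against 7.2, 8.94 and 8.81 CPM with control siRNA. This was 56% of control and the largest fall of the 41 genes (log2 fold change -0.84, SE 0.11; adjusted p = 1.3e-05). The groups of both genes were apart, and the ratio of SCD to SCD5 in TPM was 40.5, 37.6 and 46 with HOTAIR-N siRNA, against 19.1, 16 and 15.8 with control siRNA. SCD has a named pseudogene, so part of its reads may be shared. FADS2, the first desaturase of polyunsaturated fatty acids, had 2.77, 2.85 and 2.27 CPM with HOTAIR-N siRNA, against 5.21, 4.42 and 4.17 CPM with control siRNA, and fell by 0.80 (SE 0.13; adjusted p = 0.00012). FADS1, the desaturase of a later step, did not pass (0.03, SE 0.06; adjusted p = 0.656). FADS1 and FADS2 overlap each other on opposite strands over 490 bases, and FADS2 has a named pseudogene, so the split of reads between them is uncertain.

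**Figure D4:**
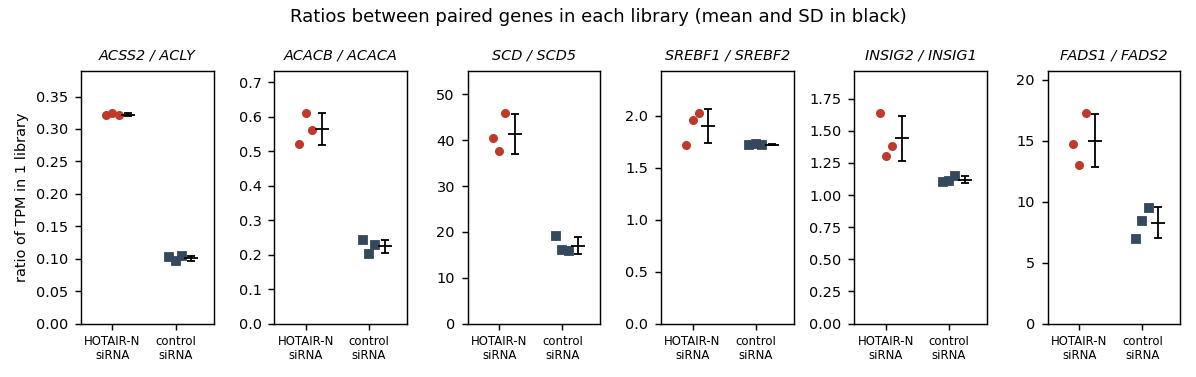
Ratio of the TPM of paired genes in each library (vertical axes, each from 0), HOTAIR-N siRNA left of control siRNA, with mean and SD of 3 libraries in black. The ratios ACSS2 to ACLY, ACACB to ACACA, SCD to SCD5, INSIG2 to INSIG1 and FADS1 to FADS2 lay higher in every HOTAIR-N siRNA library than in any control, whereas that of SREBF1 to SREBF2 overlapped (1.72 to 2.03 with HOTAIR-N siRNA and 1.72 to 1.73 with control siRNA).

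The elongases gave 1 rise, 1 fall and 1 gene that did not pass. ELOVL1, which lengthens saturated very long chains, had 113.2, 113.6 and 113.1 CPM with HOTAIR-N siRNA, against 101.3, 91.1 and 92.4 CPM with control siRNA, a log2 fold change of 0.26 (SE 0.06; adjusted p = 0.00145). ELOVL6, which lengthens palmitate, had 10, 9.5 and 9.66 CPM with HOTAIR-N siRNA, against 11.7, 13.3 and 12.6 CPM with control siRNA, and fell by 0.37 on the log2 scale (SE 0.08; adjusted p = 0.00128). In both the groups did not overlap. ELOVL5, which lengthens polyunsaturated chains, had -0.04 (SE 0.06; adjusted p = 0.641).

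Of the 3 long-chain acyl-CoA synthetases of the set, which activate fatty acids for use, ACSL4 had the largest log2 fold change. ACSL4, which prefers arachidonate, had 319.1, 304.6 and 316.4 CPM with HOTAIR-N siRNA, against 193.7, 244.2 and 221.1 CPM with control siRNA, a log2 fold change of 0.51 (SE 0.07; adjusted p = 1.94e-05). The controls spread widely but stayed below every HOTAIR-N siRNA library. ACSL1 passed narrowly at 0.17 (SE 0.07; adjusted p = 0.0402), and ACSL3 did not pass at 0.07 (SE 0.07; adjusted p = 0.386). At the entry to glycerolipids, GPAM, the mitochondrial acyltransferase of the first step, passed narrowly at -0.18 (SE 0.07; adjusted p = 0.0415). LPIN1, a phosphatidate phosphatase, rose with a log2 fold change of 0.22 (SE 0.06; adjusted p = 0.00678) and groups that did not overlap. ACSL1 and GPAM each missed the threshold under 8 of 14 alternative settings, 5 of them fits that left out a library.

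Isoforms gave a further view of these genes. Of 118 tested isoforms of the 41 genes, 22 changed, 13 higher and 9 lower, beside 19.5% of the 32627 isoforms tested. The 6 with the smallest p were NM_005063 of SCD (log2 fold change 0.54), NM_023928 of AACS (0.86), NM_006745 of MSMO1 (0.92), NM_005891 of ACAT2 (-0.69), NM_198836 of ACACA (-0.78) and NM_022821 of ELOVL1 (0.56), with edgeR adjusted p between 0.000825 and 0.00172. Each moved in the direction of its gene. NM_006745 made up 100%, 100% and 96.6% of MSMO1 with HOTAIR-N siRNA, against 82.8%, 71% and 80.2% with control siRNA, but isoform use of MSMO1 did not pass (adjusted p = 0.227).

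Isoform use, the division of a gene among its isoforms, changed in 4 of the 31 genes that had several tested isoforms (edgeR diffSpliceDGE, Simes adjusted p), beside 4.13% of the 7523 such genes. FDPS, whose total did not pass, was first (adjusted p = 0.00266). Its isoform NM_001242824 made up 60.8%, 63% and 60.2% of the gene with HOTAIR-N siRNA, against 47.5%, 49.5% and 47.4% with control siRNA. Its isoform NM_001135822 made up 28%, 25.4% and 27.3% with HOTAIR-N siRNA, against 39.6%, 37.8% and 40.8% with control siRNA, and neither share overlapped between the groups. In ELOVL1 (adjusted p = 0.0183) NM_022821 made up 84.3%, 80.2% and 81.1% with HOTAIR-N siRNA, against 65.2%, 66% and 70.7% with control siRNA. ACLY (adjusted p = 0.0186) had NM_198830 at 18.9%, 18.3% and 13.1% with HOTAIR-N siRNA, against 11.1%, 10.8% and 9.78% with control siRNA. ACSL3 (adjusted p = 0.0284) had NM_004457 at 60.5%, 59.9% and 68.3% with HOTAIR-N siRNA, against 49%, 39% and 43.7% with control siRNA. FDPS kept its call in all fits but that without HOTAIR-N siRNA replicate 2 (adjusted p = 0.0684), whereas ELOVL1, ACLY and ACSL3 each lost theirs in 5 of the 6 fits that left out a library. With the replicate number as a block, FDPS alone of the 4 passed (adjusted p = 0.0216). Isoform shares also depend on how RSEM divided reads that fit several isoforms. Those of FDPS are further uncertain through its named pseudogenes and its overlap with RUSC1-AS1 on the other strand.

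**Figure D5:**
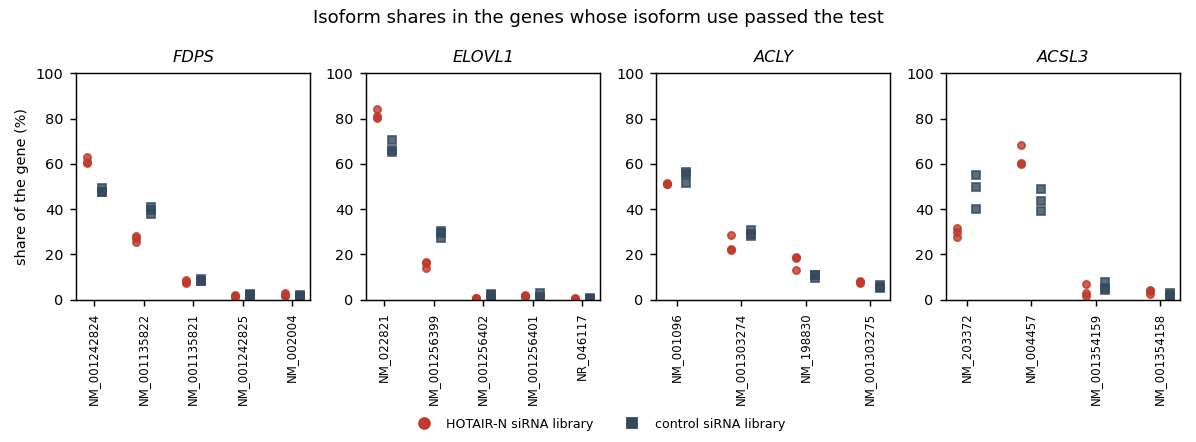
Share of each tested isoform in its gene (vertical axis, percent, as deposited) in each library, HOTAIR-N siRNA circles left of control siRNA squares, for the 4 genes whose isoform use passed. In FDPS, NM_001242824 lies at 60.2% to 63% with HOTAIR-N siRNA and at 47.4% to 49.5% with control siRNA.

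A 7-base word, GACCAAT, was known from an earlier search of these same data as one whose carriers were lower with HOTAIR-N siRNA, so its counts here are a description. For 13537 of the tested genes, 1 GENCODE 29 transcript each (GRCh38) was searched on the transcript strand, in the 3' UTR and the coding sequence. The 5' UTR and other transcripts of a gene were not counted. Of all genes with the word in the 3' UTR, 768 in number, 58.1% fell with a median log2 fold change of -0.36, and of the 869 with it in the coding sequence only, 50.1% fell with a median of -0.20. Of the 11900 with neither, 27.1% fell and the median was 0.03. The word was present in 7 of the 41 lipid synthesis genes (17.1%, against 12.1% of all genes searched), and of these 4 fell, 1 rose and 2 did not pass. The 34 genes without it in these regions gave 10 falls and 13 rises. They include SCD5, FADS2, ACLY and MVK among those that fell. The sites are shown with 12 bases on the left of the word and 11 on its right, and the capitals mark the word. They are all matches of the set in the 3' UTR and coding sequence of the transcripts searched. They lie in genes that fell (ACAT2, LSS, HSD17B7 and ACACA), rose (LPIN1) or did not pass (NSDHL and DHCR7). The sequences of the siRNAs are not known here, and the part of the word in these changes was not tested.
ACAT2, coding sequence, chr6:159777419-159777448, plus strand: ttatgggaatagGACCAATtccagccataa
LSS, 3' UTR, chr21:46190755-46190784, minus strand: gaggttttttctGACCAATagctgagttct
NSDHL, 3' UTR, chrX:152869494-152869523, plus strand: catttccatgcaGACCAATactagagtgaa
HSD17B7, coding sequence, chr1:162797877-162797906, plus strand: ggaggtgtttgaGACCAATgtctttggcca
HSD17B7, coding sequence, chr1:162803457-162803486, plus strand: aggtacagcattGACCAATttgacatatgg
DHCR7, coding sequence, chr11:71438895-71438924, minus strand: ccacagccatgtGACCAATgccatggtcct
ACACA, coding sequence, chr17:37263793-37263822, minus strand: cagatcttagcgGACCAATatggcaatgct
LPIN1, coding sequence, chr2:11782297-11782326, plus strand: gacacttttagtGACCAATcgccaactctg

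ACAT2, LSS and ACACA, which carry the word, fell by 0.70, 0.53 and 0.72 on the log2 scale, and LPIN1, which carries it in its coding sequence, rose by 0.22. HSD17B7, with 2 sites, fell by 0.33.

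Around the 41 genes, 6 other lists of lipid genes were described by their counts, each beside the 28.7% of all genes that rose and the 28.8% that fell. Of 7 tested genes that also serve the sterol pathway, 4 rose and 1 fell. GGPS1, which makes geranylgeranyl pyrophosphate, rose (0.71), TM7SF2, a sterol reductase, rose (0.40), ERG28, a scaffold of the demethylation enzymes, rose (0.26), and LBR, which also has sterol reductase activity, fell (-0.36). Of 14 genes of SREBP processing and sterol-driven degradation, 3 rose and 4 fell. The ubiquitin ligase gene RNF145 fell (-0.68) and NPLOC4, which helps extract ubiquitylated proteins, fell (-0.31), while the ligase gene RNF139 rose (0.62). Of 15 genes of sterol transport, storage and the LXR receptors, 8 rose and 4 fell. CH25H, which makes 25-hydroxycholesterol, was low in both groups and rose, with 2.62, 3.15 and 2.78 CPM with HOTAIR-N siRNA, against 0.925, 0.745 and 1.05 CPM with control siRNA (log2 fold change 1.65, SE 0.17; adjusted p = 1.19e-06). MYLIP, an LXR target that degrades lipoprotein receptors, rose (0.95), GRAMD1A, a sterol carrier between membranes, rose (0.53), and OSBP, an oxysterol-binding protein, fell (-0.63).

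Of 15 other genes of fatty acid synthesis and elongation, 5 rose and 3 fell. ELOVL4, which makes very long chains, rose (1.11), and ME1, a source of NADPH, rose (0.47), whereas the dehydratase genes HACD3 (-0.69) and HACD2 (-0.60), which act in each elongation round, fell. Of 13 genes of glycerolipid synthesis and lipid droplets, 6 rose and 2 fell. The acyltransferase gene AGPAT5 (0.55), the droplet coat genes PLIN3 (0.49) and PLIN2 (0.41) and the lipase gene PNPLA2 (0.37) rose. Of 22 genes of fatty acid oxidation, 8 rose and 4 fell, and CPT1C (0.80), a carnitine palmitoyltransferase gene, SLC25A20 (0.47), the carnitine carrier gene, ECI2 (0.44), an isomerase gene, and ACADVL (0.30), a dehydrogenase gene, were higher. All genes named from these lists passed the test with groups that did not overlap in CPM.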

How the data were processed

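For each library the authors deposited a gene table and an isoform table. Per the file headers these hold expected counts, which are RSEM's estimates with shared reads divided between transcripts, TPM, which is scaled for length within a library, and each isoform's share of its gene in percent. Per the submitters' processing notes the tools were STAR 2.6.0c and RSEM 1.3.0 on hg19. For the annotation release and the strand used in counting, nothing is given in the sources used here, so genes that overlap on opposite strands and genes with close copies are uncertain.

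Expected counts were rounded and tested over all genes with edgeR 4.0.16 in R 4.3.3 (filterByExpr by group with a minimum count of 10, TMM, robust quasi-likelihood, no block), with Benjamini-Hochberg adjustment at 0.05. The SE is the absolute log2 fold change over the square root of F. Isoforms were tested alike, and isoform use with diffSpliceDGE. CPM uses TMM-scaled library sizes. The fits were also run on simulated counts with few changed genes and the same spread in both groups, unlike these data. That run does not give their error rate here. Depth of 32715361 to 36578681 expected counts per library left at least 81.1 counts behind every gene of the set, and p-values measure the spread between 3 transfections per group.

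The members, lists, word and alternatives were chosen with earlier results of these data known. Named were all members, HOTAIR, up to 4 passed genes of each other list and 6 isoforms by smallest p. A gene that this rule takes is not reported here. Promoter windows shown were chosen after their matches were seen. The CPM overlap counts and sums carry no test. Alternatives were other scalings and filters, DESeq2 1.42.0, limma-voom (limma 3.58.1), the replicate block, each library left out, and a test against a fold of 1.5. Promoter windows came from RefSeq (GRCh38.p14) and transcripts from GENCODE 29 (GRCh38), a build other than that of the counts.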

Additional observations from a re-analysis of the deposited data

How the results depend on the processing

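Of the 28 lipid synthesis genes that changed, 21 kept their sign and stayed past the threshold in all 14 alternatives other than the test against a fold of 1.5. The exceptions were SREBF1, SCAP, MVD, FDFT1, FASN, ACSL1 and GPAM. Of the 13 that did not pass, 8 passed in none. The number changed was 27 to 29 under other scalings, filters and tools, and 23 to 30 without a library. Against a fold of 1.5, 1700 genes passed, with 3 of the 41, 0 sterol genes, 3 fatty acid genes, 0 regulators and 5 of the other lipid lists, which had 52 by the usual test. The lower counts there follow from the stricter null. Without a library the regulators gave 1 to 4 calls, the sterol median -0.051 to 0.007, the fatty acid sum 102.2% to 105.5% of control, and isoform use 0 to 3 genes. The sterol median was -0.067 and the sterol sum 97.24% of control with TPM. Signs turned only in genes that were never past the threshold in those fits. Without a library INSIG2 ranged between -0.018 and 0.084, FDPS between -0.051 and 0.042, EBP between -0.041 and 0.007, ELOVL5 between -0.097 and 0.007, FADS1 between -0.005 and 0.071, and ACSL3 between -0.004 and 0.119. With upper-quartile factors FDPS was 0.015 and EBP 0.003, unscaled they were 0.015 and 0.002, and with the stricter filter FDPS was 0.006. The cause was not tested. The median log2 fold change of all genes was 0.006 with TMM, 0.003 with RLE factors, and 0.028 with upper-quartile factors and unscaled.

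Same-numbered libraries did not deviate together (correlations of -0.24, -0.006 and -0.078), so the numbers are taken not to pair them. Between libraries of different number the correlations ran from -0.247 to 0.302, the highest for HOTAIR-N siRNA replicate 1 with control replicate 3. Whether libraries of different number share a batch was not tested. With the replicate number as a block, 7984 genes changed, with 24 of the 41, 10 sterol genes, 12 fatty acid genes, 2 regulators and 47 of the other lipid lists, and isoform use passed in 1 gene.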
